A study of Mus musculus with 8 samples.

Results

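Proplatelets are the long extensions through which megakaryocytes (MKs), the large marrow cells that make platelets, release platelets into the blood. The 10 genes described here encode tubulin and actomyosin proteins with known roles in this process, namely Tubb1, Tuba4a, Tuba8, Tubb6, Myh9, Myl9, Flna, Tpm4, Actn1 and Diaph1. They were selected by gene symbol from a table of 13387 genes, and all 10 were found. All 10 also passed the filter on low counts, which left 11722 genes for testing. Both groups consisted of wild-type C57BL/6 murine bone marrow cells without further treatment. The methods of the study give 1 range of young adult ages for all of its mice and none by group. MKs were enriched from flushed marrow with CD41 beads and cultured for 18 hours, either alone (4 libraries) or together with marrow mesenchymal stromal cells (MSCs) sorted as CD45-Ter119-CD31-CD51+CD140a+ (4 libraries). Enrichment with beads leaves other marrow cells in the culture, and several wells were pooled for each library. The labels give the sequenced cells as MKs taken apart from the platelets, whereas the methods of the study give platelets.

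Microtubules, polymers of alpha- and beta-tubulin, form the core of the proplatelet shaft and slide along one another to lengthen it. They later coil beneath the platelet membrane as the marginal band, in which beta1-tubulin (Tubb1) is the main beta isotype. Actin filaments, crosslinked by filamin and alpha-actinin and pulled by nonmuscle myosin II, branch and bend proplatelets and restrain their early release. Inherited variants in several of these genes in humans cause thrombocytopenia with large platelets.

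Libraries held between 4939874 and 12523616 counts, and levels are given as CPM, that is counts after scaling by library size and edgeR's TMM factors. A floor of 3 counts was worth 0.284 to 0.662 CPM, for counting error only. Replicate 3 of the cocultures stood apart before any result. It had the highest total but counts on only 10735 genes, compared with 12406 to 13193 in the other libraries, and 1012 genes were at 0 in it that had at least 10 counts everywhere else. Values without this library are therefore given beside the results that it moves. Markers of other cells also differed between groups. MK and platelet markers (15 genes) summed to 1976 to 2296 CPM in MKs cultured alone and 1796 to 2404 CPM in cocultures, and none was at 0 across a whole group. The most abundant of them, Pf4 (platelet factor 4), lay between 623 and 1601 CPM over all 8 libraries. Neutrophil markers (11 genes), led by S100a8, summed to 85088 to 87259 CPM in MKs cultured alone and 4534 to 10303 CPM in cocultures, so they exceeded the MK markers in every library. MSC markers (11 of 14 listed genes measured), led by Sparc, summed to 14.9 to 22.9 CPM in MKs cultured alone and 1660 to 4880 CPM in cocultures. Smooth muscle contractile markers (9 of 10 listed genes measured), led by Acta2, summed to 42.0 to 51.9 CPM and 2366 to 4812 CPM, with Cnn1 and Lmod1 at 0 in every library of MKs cultured alone. Macrophage markers (11 genes), led by Cd68, summed to 179.9 to 244.9 CPM and 1310 to 2240 CPM. B cell markers, led by Ms4a1, summed to 885.7 to 945.8 CPM in MKs cultured alone and 91.1 to 236.0 CPM in cocultures, and endothelial markers, led by Tek, to 62.5 to 75.0 CPM and 13.3 to 28.1 CPM. Erythroid markers, led by Hbb-bs, summed to 23.5 to 31.7 CPM in MKs cultured alone. They summed to 55.5 CPM in coculture replicate 3 and to 7.03 to 10.4 CPM in the other cocultures, below every library of MKs cultured alone.

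**Figure D1:**
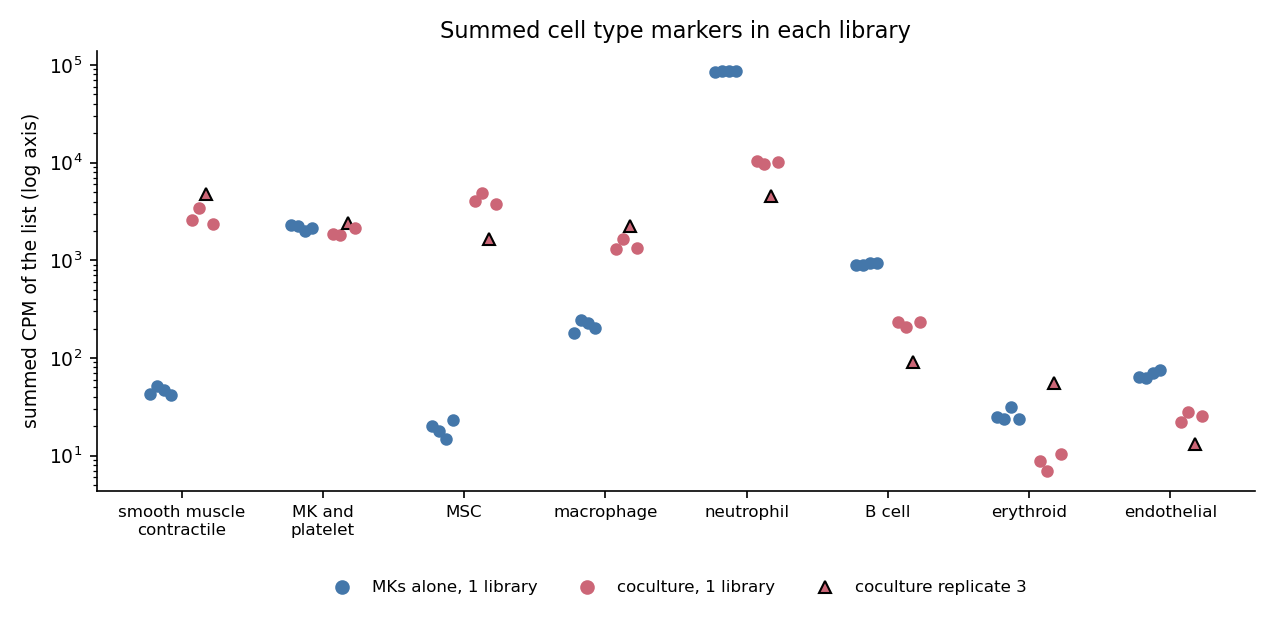
Summed CPM (log axis) of 8 lists of cell type markers in each of the 8 libraries, with MKs cultured alone in blue, cocultures in red and coculture replicate 3 as a triangle. The MK and platelet sums overlap between groups, whereas smooth muscle, MSC and macrophage sums are higher and neutrophil, B cell and endothelial sums lower in every coculture.

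Of the 10 genes, 4 were called higher in the coculture libraries than in the libraries of MKs cultured alone. These were Myl9, Tubb6, Tpm4 and Actn1, and over all genes tested 13.2% were called higher. To be called, a gene had to change 2-fold or more with an adjusted p of 0.05 or less in edgeR's quasi-likelihood test, and to average 1 CPM or more in either group. None of the 10 genes was called lower by edgeR or by DESeq2, and edgeR called 7.31% of all genes lower. In edgeR's test none fell at an unadjusted p of 0.05. With DESeq2, Diaph1 fell with an adjusted p of 0.0326, but by less than 2-fold. The median log2 fold change of the 10 genes was 0.79 beside 0.03 for all genes tested, and it was 0.04 without coculture replicate 3, because Tubb1 and Tuba8 changed sign. Without that library the same 4 genes were called higher, beside 20.6% of genes called higher and 15.4% called lower. In bulk libraries such as these, fewer cells of a type and less RNA per cell cannot be told apart, and the same holds for more cells and more RNA. The part that the other cell types have in these differences was not tested.

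**Figure D2:**
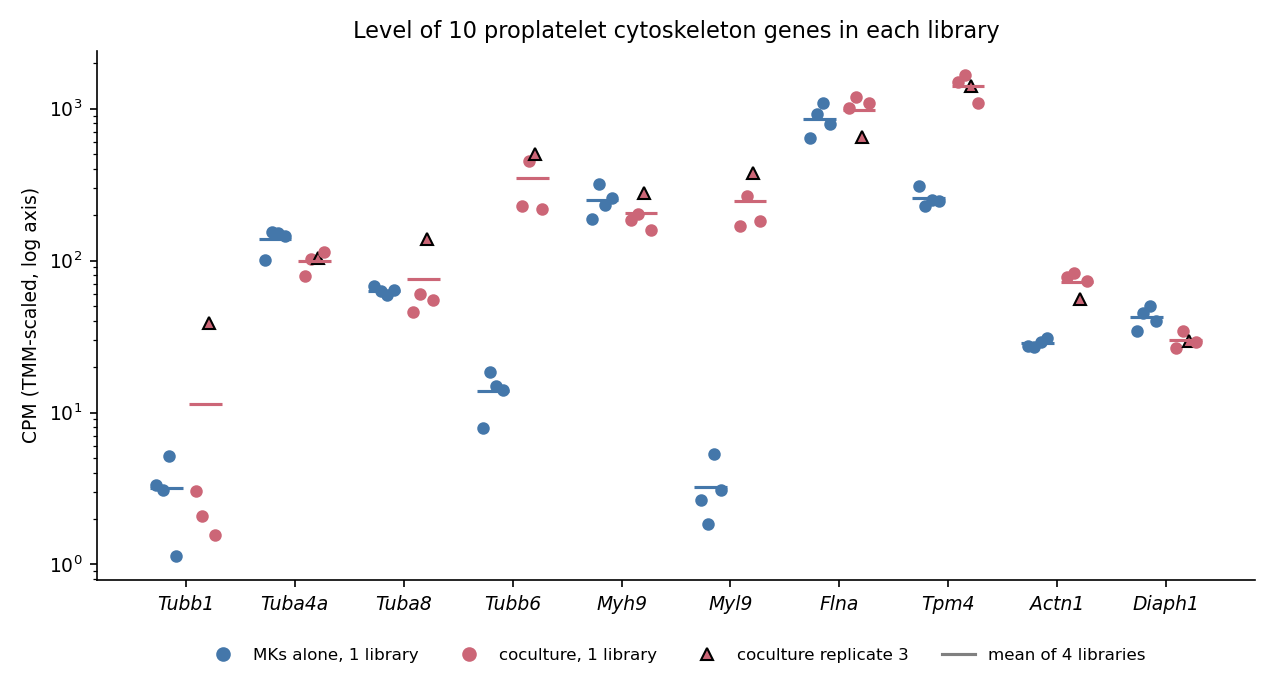
CPM (TMM-scaled, log axis) of the 10 genes in each library, with bars at the mean of 4 libraries, MKs cultured alone in blue, cocultures in red and coculture replicate 3 as a triangle. Tubb6, Myl9, Tpm4 and Actn1 lie higher in every coculture than in any library of MKs cultured alone, and the high coculture mean of Tubb1 comes from replicate 3.

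Per kilobase of annotated exon, Tpm4 had the highest level of the 10 genes in MKs cultured alone, at 117.7 ± 15.6 CPM per kb (SD, n = 4). Flna followed at 91.3 ± 20.3 CPM per kb, and the ranges of both overlapped. Tuba4a (37.3 CPM per kb), Tuba8 (28.0) and Myh9 (19.2) came next, ahead of Diaph1 (6.69), Tubb6 (5.71) and Actn1 (5.17), whose ranges overlapped from neighbor to neighbor. Myl9 (2.78 ± 1.28 CPM per kb) and Tubb1 (2.27 ± 1.18 CPM per kb) were lowest and overlapped as well. In cocultures Tpm4 was again highest, at 639.9 ± 110.8 CPM per kb. Myl9 (213.0 ± 82.5 CPM per kb) and Tubb6 (143.6 ± 60.9 CPM per kb) now came next, ahead of Flna (104.7 ± 25.2 CPM per kb), although each of these overlapped with the next. The remaining genes averaged between 4.71 and 33.2 CPM per kb.

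Among the beta-tubulins, Tubb6 rose and Tubb1 had no replicated change. Tubb6 (chr18:67390717-67402749, + strand, GRCm38) encodes beta6-tubulin, an isotype found in MKs and many other cells. It was at 7.95, 18.6, 14.97 and 14.2 CPM in replicates 1 to 4 of MKs cultured alone. In the cocultures it was at 227, 450, 504 and 218 CPM. Replicates 2 and 3 were the highest cocultures, and the groups did not overlap. Its log2 fold change was 4.64 (SE 0.41, edgeR adjusted p = 1.09e-04), or 25-fold with a 95% interval from 13.0 to 48.0. Of the 31-base stretches in its transcripts, 3.24% also occurred in other genes.

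Tubb1 (chr2:174450695-174457882, + strand) was close to the limit of counting in most libraries. It was at 3.31, 3.09, 5.21 and 1.14 CPM in MKs cultured alone, which were 15, 30, 47 and 7 counts. In the cocultures it was at 3.03, 2.08, 38.8 and 1.56 CPM, or 32, 16, 371 and 9 counts. Replicate 3 was the high library, at 17.4 times the mean of the other cocultures, which lay within the range of MKs cultured alone. With all 8 libraries the log2 fold change was 1.83 with a 95% interval from -0.71 to 4.37 (edgeR adjusted p = 0.277), and without replicate 3 it was -0.53 (-1.59 to 0.54, adjusted p = 0.390). None of the 31-base stretches of its annotated transcripts occurred in those of another gene. Per kilobase, Pf4 stood at 1167 CPM in MKs cultured alone, beside 2.27 CPM for Tubb1.

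The share in the gene family was examined next for 9 of the 10 genes, because a share does not depend on how libraries are scaled against each other. Shares were computed from counts per kilobase and compared with a two-sided exact permutation test, for which 0.0286 is the smallest p that 4 against 4 libraries allow. Of the 9 shares computed, 4 reached that p, and their adjusted p over the 9 shares was 0.0643, which misses 0.05. Tubb6 made up 4.05 ± 0.75% (SD, n = 4) of the beta-tubulin signal in MKs cultured alone and 29.2 ± 3.18% in cocultures (exact p = 0.0286). The summed beta-tubulin level was 138.2 ± 23.1 CPM per kb in MKs cultured alone and 485.2 ± 187.6 CPM per kb in cocultures. Tubb4b and Tubb5, the widely expressed isotypes, held 44.8% and 40.4% of it in MKs cultured alone, and 23.2% and 21.8% in cocultures. Tubb2a went from 8.33% to 19.1% on average. Tubb1 held 1.65 ± 0.83% and 1.26 ± 1.71% (exact p = 0.771), and in cocultures other than replicate 3 it held 0.41 ± 0.19%. Tubb2a and Tubb2b share 56.4% and 43.1% of their 31-base stretches with other genes, mostly with each other, so counts between them are uncertain. Tubb4b shares 53.0% with other annotated genes but 4.61% with other genes of the count table.

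**Figure D3:**
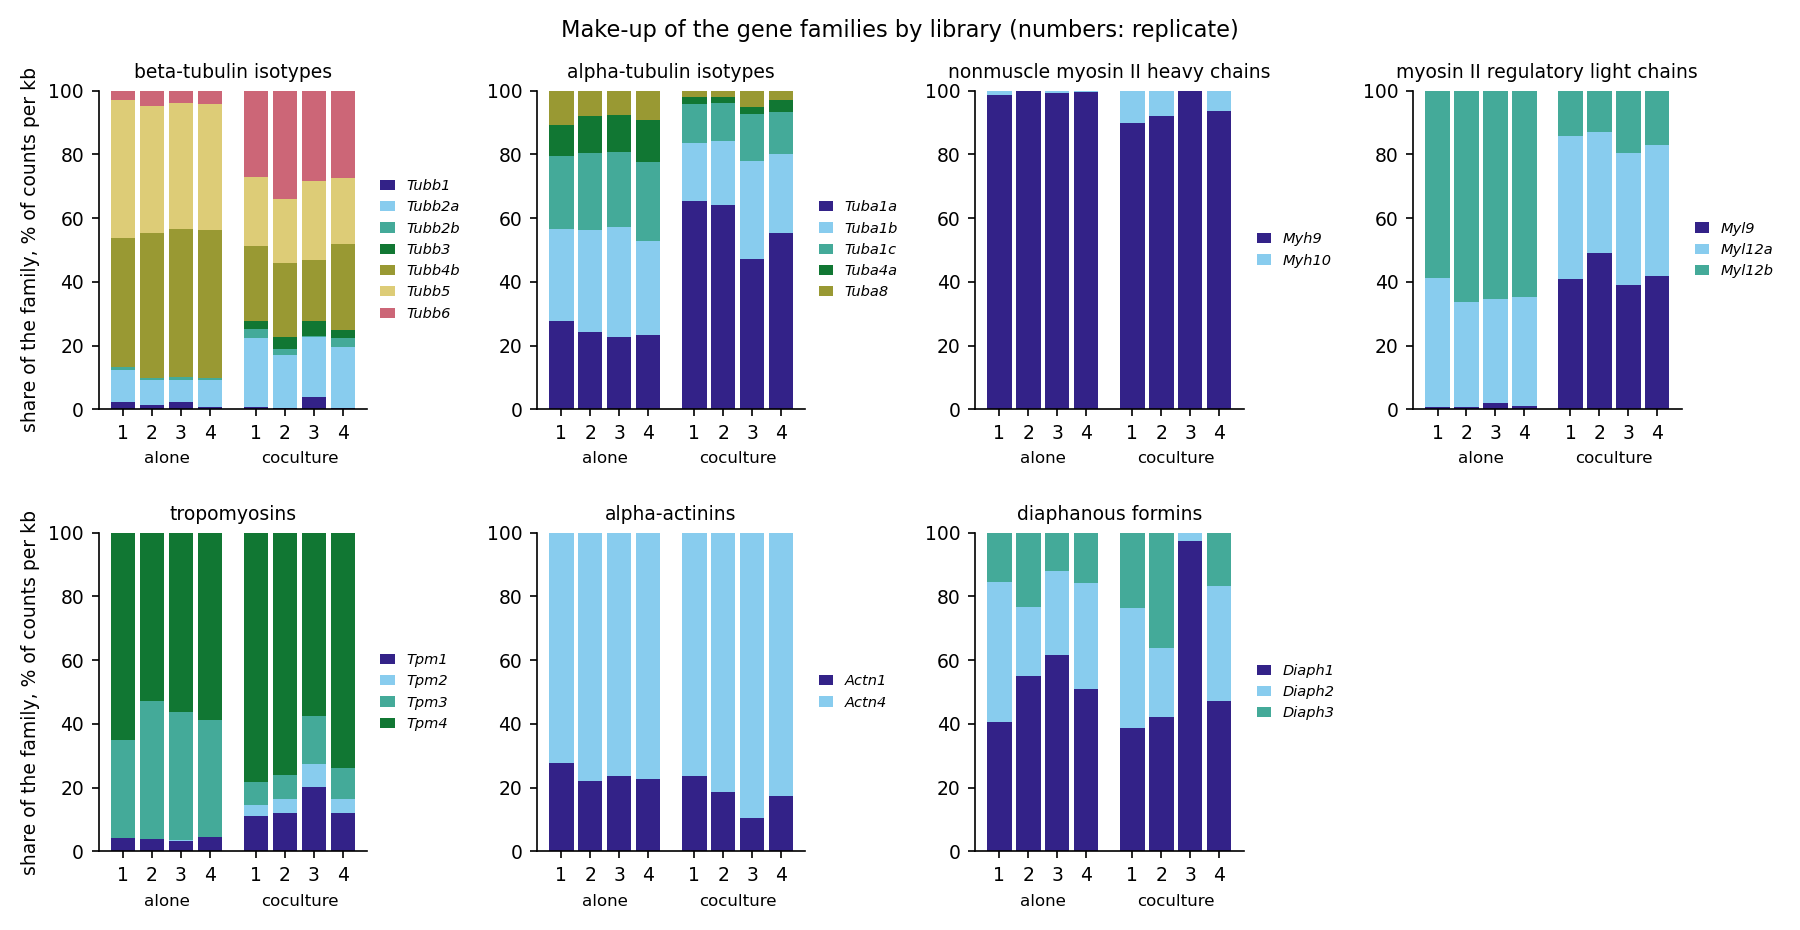
Share of each gene in its family, in percent of the family's counts per kilobase, for the 7 families that hold 9 of the 10 genes, with 1 bar per library (replicates 1 to 4 of MKs cultured alone, then of cocultures). Tubb6 takes 3.04% to 4.81% of beta-tubulin in MKs cultured alone and 27.0% to 33.9% in cocultures, Myl9 takes 0.61% to 1.87% and 39.1% to 49.0% of the regulatory light chains, and Diaph1 takes 97.3% of the diaphanous formins in coculture replicate 3.

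The alpha-tubulin genes among the 10, Tuba4a and Tuba8, did not pass the test, whereas other alpha-tubulins rose. Tuba4a (chr1:75214228-75219865, - strand) encodes an alpha isotype that is abundant in platelets. It was at 101.1, 155, 152 and 145 CPM in MKs cultured alone and 79.0, 102, 104 and 114 CPM in cocultures. The ranges overlapped only through replicate 1 of MKs cultured alone, the low library of its group. This was a log2 fold change of -0.47 (SE 0.21, edgeR adjusted p = 0.141). Without coculture replicate 3 it was -0.52 with an adjusted p of 0.0324, which is still under a 2-fold change. Tuba4a overlaps Stk16 on the other strand and shares 38.4% of its 31-base stretches with other genes, mainly Stk16, and whether counting used strand was not given in the sources used here. Stk16, looked at after its overlap was found, had a log2 fold change of 0.22 (edgeR adjusted p = 0.767).

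Tuba8 (chr6:121210696-121226854, + strand), an alpha isotype with a narrow tissue range that includes platelets, was at 67.5, 62.7, 59.7 and 63.6 CPM in MKs cultured alone. In cocultures it was at 45.9, 60.3, 139 and 54.8 CPM, with replicate 3 high and replicates 1 and 4 below every library of MKs cultured alone. With all 8 libraries the log2 fold change was 0.25 (95% interval -0.56 to 1.05, edgeR adjusted p = 0.660), and -0.26 (-0.63 to 0.11) without that replicate. As shares, Tuba4a went from 11.6 ± 1.29% to 2.58 ± 0.77% of the alpha-tubulin signal and Tuba8 from 8.87 ± 1.48% to 3.02 ± 1.42% (SD, n = 4, exact p = 0.0286 for each). Every coculture had a lower share of both than any library of MKs cultured alone. The difference for Tuba4a was -9.03 percentage points, and -14.6 with raw counts in place of counts per kilobase. The summed alpha-tubulin level was 320.3 ± 36.8 CPM per kb in MKs cultured alone and 1086 ± 239.5 CPM per kb in cocultures. Most of that came from Tuba1a, whose share was 24.5 ± 2.24% and 57.9 ± 8.43%. Tuba1a rose with a log2 fold change of 3.01 (edgeR adjusted p = 5.19e-05), but it and Tuba1b share 78.6% and 78.7% of their 31-base stretches with other genes.

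Of the myosin II genes, the regulatory light chain Myl9 rose and the heavy chain Myh9 did not pass the test. Myl9 (chr2:156775420-156781658, + strand) encodes a light chain whose phosphorylation switches on myosin II, and it is abundant in smooth muscle and in platelets. It was at 2.65, 1.86, 5.32 and 3.09 CPM in MKs cultured alone, from 12 to 48 counts. In cocultures it was at 169, 264, 376 and 181 CPM, from 1043 to 3598 counts. Every coculture was far above every library of MKs cultured alone. The log2 fold change of 6.24 (SE 0.46, edgeR adjusted p = 4.20e-05) was the largest among the 10 genes, 75.8-fold with a 95% interval from 36.8 to 156.0. Myl9 also moved beside its nearest relatives, the nonmuscle light chains Myl12a and Myl12b. Its share of the 3 was 1.06 ± 0.55% in MKs cultured alone and 42.7 ± 4.34% in cocultures (exact p = 0.0286), a difference of 41.6 percentage points, or 21.0 with raw counts. Myl12b held 63.8% and 15.9% on average. Myl12a and Myl12b share 22.7% and 11.2% of their 31-base stretches with other genes of the count table, and Myl9 shares 0.41%.

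The stretch upstream of Myl9 is shown because it held the only CArG box among the 8 members with a promoter window. The CArG box is the element bound by serum response factor in contractile genes. No window was available for Tubb6 and Diaph1, so these genes were not searched. The 206 bases below lie at chr2:156775214-156775419 on the + strand of GRCm38.p6 (RefSeq) and end before the annotated gene, with the letters of the CArG box in capitals.
Myl9: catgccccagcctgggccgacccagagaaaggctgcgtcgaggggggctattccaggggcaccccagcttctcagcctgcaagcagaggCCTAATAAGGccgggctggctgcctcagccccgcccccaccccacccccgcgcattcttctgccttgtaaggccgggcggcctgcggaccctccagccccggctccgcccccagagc
The motif ends 151 bases before the RefSeq start site. In windows of 300 bases around gene starts (250 bases upstream), read on both strands, 1.63% of 32851 RefSeq windows held a CArG box, as did 1 of the 8 members with a window. AGATAA, a form of the GATA motif, was in 11.2% of windows and TGACTCA, the AP-1 motif, in 5.20%, and neither was in the windows of these 8 genes. A match of letters describes the sequence and does not show binding. The motifs were chosen after the expression values were seen.

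Myh9 (chr15:77760587-77842175, - strand) encodes the heavy chain of nonmuscle myosin IIA, the main myosin II of platelets. It was at 189, 317, 232 and 257 CPM in MKs cultured alone and 185, 203, 279 and 160 CPM in cocultures. The groups overlapped, with replicate 3 the highest coculture. This gave a log2 fold change of -0.27 (95% interval -0.81 to 0.27, edgeR adjusted p = 0.458), and -0.47 (-0.87 to -0.06, adjusted p = 0.0472) without that replicate, under a 2-fold change. Myh9 made up 99.3 ± 0.50% of the heavy chain signal in MKs cultured alone and 93.9 ± 4.38% in cocultures (exact p = 0.143), the rest being Myh10, the heavy chain of myosin IIB. Myh10 was at 16.9, 14.5 and 8.67 CPM in replicates 1, 2 and 4 of the cocultures and at 0 in replicate 3, compared with 0.21 to 1.99 CPM in MKs cultured alone.

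Among genes for actin binding proteins, Tpm4 and Actn1 rose and Flna did not pass the test. Tpm4 (chr8:72134975-72153142, + strand) encodes a tropomyosin that coats nonmuscle actin filaments. It was at 309, 230, 250 and 248 CPM in MKs cultured alone and 1485, 1668, 1403 and 1083 CPM in cocultures. The groups were well apart and coculture replicate 3 was close to the others. Tpm4 rose with a log2 fold change of 2.44 (SE 0.20, edgeR adjusted p = 7.50e-05), 5.44-fold with a 95% interval from 3.95 to 7.49. Its share of the tropomyosins was 58.2 ± 5.20% in MKs cultured alone and 71.4 ± 9.42% in cocultures (exact p = 0.0857), with replicate 3 at 57.5% and the other cocultures between 73.9% and 78.3%. Tpm3, a further nonmuscle tropomyosin, held 37.7% and 9.96% on average, and Tpm1, a form shared with muscle, 3.93% and 13.8%. Of the 31-base stretches of Tpm4, 19.97% occurred in other annotated genes but only 0.09% in other genes of the count table. Tpm3 shares 26.9% with other genes of the count table, mainly Tpm3-rs7.

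Actn1 (chr12:80167547-80260371, - strand) encodes alpha-actinin-1, which ties actin filaments into bundles. It was at 27.4, 27.1, 29.1 and 30.9 CPM in MKs cultured alone and 77.3, 82.6, 55.5 and 73.4 CPM in cocultures. The groups did not overlap, and replicate 3 was the lowest coculture. Actn1 rose with a log2 fold change of 1.33 (SE 0.23, edgeR adjusted p = 0.00365), 2.52-fold with a 95% interval from 1.75 to 3.63, which reaches below 2-fold. When the test asked for a change beyond 2-fold (glmTreat), Actn1 was no longer called, with an adjusted p of 0.176. Actn4, its nonmuscle relative, rose too, with a log2 fold change of 1.97 (edgeR adjusted p = 5.33e-04). The share of Actn1 beside Actn4 was 24.1 ± 2.61% in MKs cultured alone and 17.5 ± 5.48% in cocultures (exact p = 0.114).

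Flna (chrX:74223461-74249820, - strand) encodes filamin A, which crosslinks actin and ties it to the von Willebrand factor receptor at the platelet surface. It was at 637, 914, 1088 and 795 CPM in MKs cultured alone and 1001, 1195, 650 and 1089 CPM in cocultures, with overlapping groups. The log2 fold change was 0.20 (95% interval -0.37 to 0.76, edgeR adjusted p = 0.613). Replicate 1 of MKs cultured alone and coculture replicate 3 were the lowest libraries of their groups. Without the latter the log2 fold change was 0.33 (-0.08 to 0.74, adjusted p = 0.160). None of the 31-base stretches of its annotated transcripts occurred in those of another gene.

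**Figure D4:**
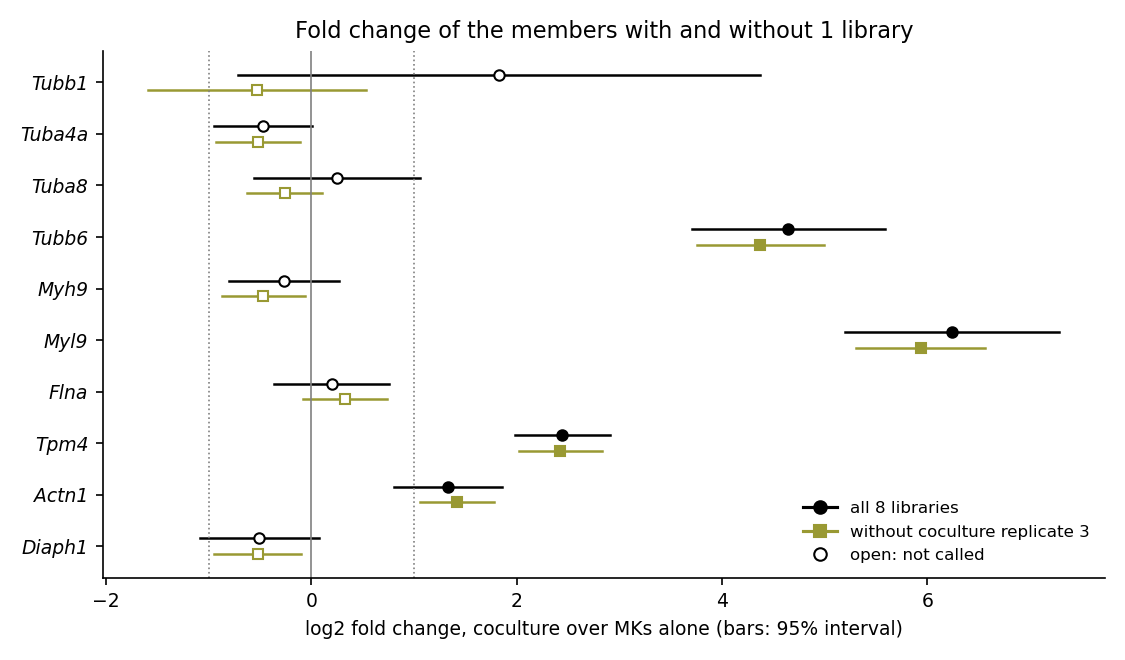
Log2 fold change of the 10 genes in cocultures over MKs cultured alone with 95% intervals, for all 8 libraries (black) and without coculture replicate 3 (olive), where filled symbols were called and dotted lines mark 2-fold. Myl9, Tubb6, Tpm4 and Actn1 were called both ways, whereas Tubb1 moves from 1.83 to -0.53 and Tuba8 from 0.25 to -0.26.

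Diaph1 (chr18:37843601-37935476, - strand) encodes the formin mDia1, which elongates actin filaments and also acts on microtubules. It was at 34.2, 45.5, 50.0 and 39.9 CPM in MKs cultured alone and 26.6, 34.1, 29.4 and 29.3 CPM in cocultures. Every coculture was below every library of MKs cultured alone, though only just. Such a separation was seen for 21.1% of all genes tested, and the opposite one, with every coculture higher, for 19.3% of all genes and for 4 of the 10. The log2 fold change was -0.51 (95% interval -1.09 to 0.08, edgeR adjusted p = 0.194), and -0.52 (adjusted p = 0.0357) without coculture replicate 3. With all 8 libraries DESeq2 gave Diaph1 -0.53 (DESeq2 adjusted p = 0.0326), which is under a 2-fold change. Its share of the diaphanous formins was 52.0 ± 8.84% and 56.3 ± 27.6% (exact p = 0.943), because Diaph2 was at 1.46 CPM and Diaph3 at 0 in replicate 3. In the other cocultures the share was 42.6 ± 4.22%.

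Other cytoskeletal genes were read from 5 lists without the 10 genes above. Of 86 listed genes in the table, 84 were tested, 18 were called higher and 6 lower, with a median log2 fold change of 0.43. Over all genes tested, 13.2% were called higher and 7.31% lower, with a median of 0.03. Without coculture replicate 3, 24 of 86 were higher and 10 lower, beside 20.6% and 15.4% of all genes. The same shares over all genes apply to the counts given for each list. All 10 other tubulins had a fold change above 0 and 7 were called higher, with a median of 2.57. Tubb3, best known as a neuronal isotype, had no count in MKs cultured alone and was at 17.2, 36.3, 63.0 and 15.96 CPM in cocultures. Against 3 counts over the group, that was a log2 fold change of at least 8.34. Tubg2, a gamma-tubulin, had no count in MKs cultured alone either and was at 51.0 CPM in coculture replicate 3, but only at 1.39 to 2.08 CPM in the others. Its bound was at least 7.10 on the log2 scale, and 4.03 without that library. Tubb2b rose with a log2 fold change of 3.03 (edgeR adjusted p = 0.00295).

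Of 23 genes for microtubule assembly, modification and motors, edgeR called 4 higher and none lower. DESeq2 called none lower either, although 3 had lower levels at an unadjusted p of 0.05 in edgeR's test. Without coculture replicate 3, edgeR called 6 higher and Mapre2 lower. Map1b, a microtubule-associated protein best known from neurons, was between 0.22 and 0.41 CPM in MKs cultured alone and between 71.5 and 89.9 CPM in cocultures, with a log2 fold change of 7.95 (edgeR adjusted p = 6.11e-06). Map4, a widely expressed microtubule-associated protein, rose with a log2 fold change of 2.09 (adjusted p = 0.00246), and Dynll1, a dynein light chain, with 1.25 (adjusted p = 0.00286). Mapre1, the plus-end binding protein EB1 and the most abundant of the list, had a log2 fold change of 0.13 (adjusted p = 0.655).

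Of 12 further genes of myosin II and its regulators, 2 were called higher and 1 lower. Leaving out coculture replicate 3 gave 3 higher and 2 lower. Mylk, the kinase that phosphorylates the regulatory light chain, was between 2.47 and 3.77 CPM in MKs cultured alone and at 68.5, 59.5, 16.7 and 35.6 CPM in cocultures, with a log2 fold change of 3.90 (edgeR adjusted p = 8.76e-04). Ppp1r12a, the targeting subunit of the phosphatase that reverses this step, fell by 1.32 on the log2 scale (adjusted p = 0.00534). Ppp1cb, the catalytic subunit and the most abundant gene of the list, had a log2 fold change of -0.86 (adjusted p = 0.0772). Myl12a rose with a log2 fold change of 1.15 (adjusted p = 0.0208), which was 0.78 and no longer called without coculture replicate 3, whereas Myl12b was then called lower, with -1.57 in place of -1.02.

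Of 14 tested actins, tropomyosins and crosslinkers, 3 were called higher and 1 lower. Leaving out coculture replicate 3 gave 5 of 15 higher and 1 lower. With all libraries those higher were, besides Actn4, Tpm2, at 0.44 to 1.33 CPM in MKs cultured alone and 81.0 to 233 CPM in cocultures, and Tpm1, at 42.2 to 59.1 CPM and 521 to 1440 CPM. Their log2 fold changes were 7.12 for Tpm2 (edgeR adjusted p = 5.27e-05) and 4.03 for Tpm1 (adjusted p = 1.09e-04), and both genes are best known from muscle. Lcp1, the leukocyte plastin, fell by 1.63 on the log2 scale (adjusted p = 4.36e-04). Actg1, the cytoplasmic gamma-actin and the most abundant of the list, had a log2 fold change of 0.41 (adjusted p = 0.179). Of 25 tested genes for actin nucleation and turnover, 2 were higher and 4 lower, with a median log2 fold change of -0.23, and without coculture replicate 3, 3 of 26 were higher and 6 lower. Fmnl1, a formin of blood cells, fell by 1.88 on the log2 scale (adjusted p = 0.00455). Twf1, a twinfilin that caps actin filaments, and Gsn, the severing protein gelsolin, rose with log2 fold changes of 1.76 and 1.52. Tmsb4x, the actin monomer binding thymosin beta4, was at 7912 CPM in coculture replicate 3 and between 2020 and 2738 CPM in the others, compared with 4096 to 4752 CPM in MKs cultured alone.

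**Figure D5:**
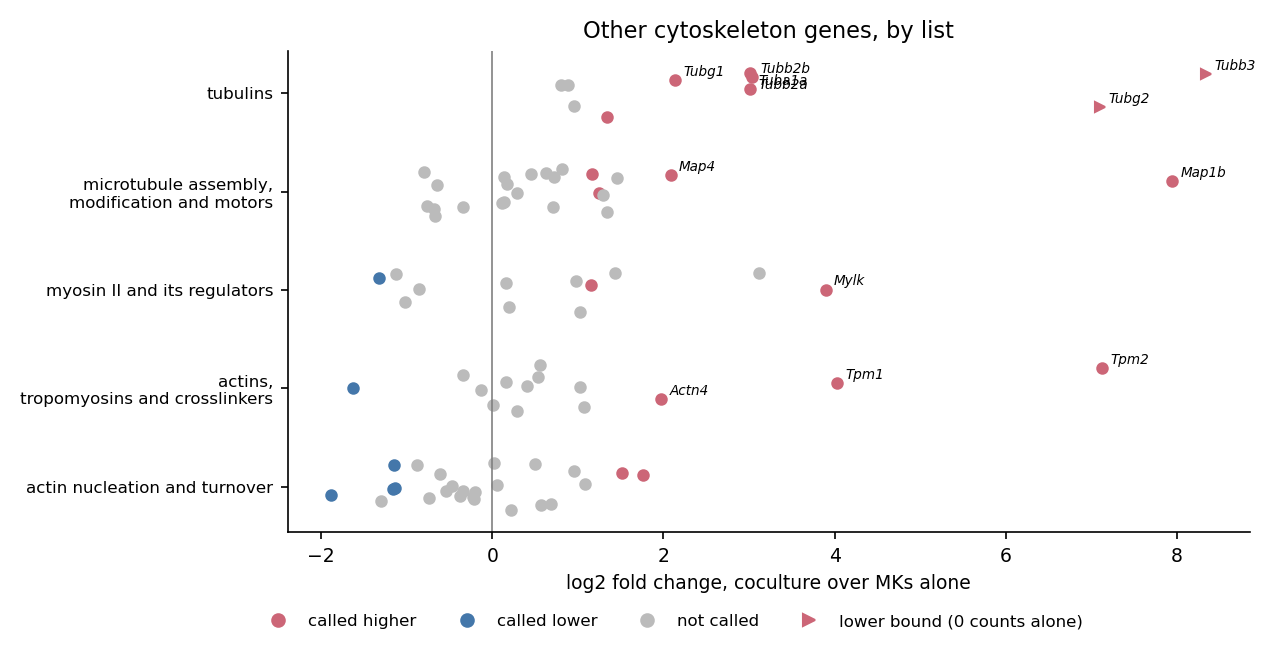
Log2 fold change of the tested genes in 5 cytoskeletal lists, without the 10 genes, where red was called higher, blue lower and gray not called, and triangles are lower bounds for genes with no count in MKs cultured alone. Tubulins lie to the right of 0, and the genes furthest to the right are Tubb3, Map1b, Tpm2 and Tubg2.

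The smooth muscle contractile markers moved with Myl9, Tpm1, Tpm2 and Mylk, the last of which is on that list. Of 7 tested genes of the list, 6 were called higher, with a median log2 fold change of 7.76, and without coculture replicate 3 all 9 were. Myh11, also on the list, was not in the table. Acta2, smooth muscle actin, was at 28.5, 37.0, 34.0 and 26.5 CPM in MKs cultured alone and 995, 1652, 2312 and 988 CPM in cocultures. Among the cocultures, replicate 3 had the highest level of Myl9, Tpm1, Tpm2 and Tubb6 and of 5 of the 9 smooth muscle markers, namely Acta2, Actg2, Tagln, Cnn1 and Cald1. It had the lowest level of the other 4, with Smtn and Lmod1 at 0, Synpo2 at 1.46 CPM beside 3.64 to 6.77 CPM, and Mylk at the 16.7 CPM given above. Sparc was lowest there too, at 548 CPM compared with 871 to 1419 CPM in the other cocultures. Genes off the smooth muscle list were also highest in replicate 3. Tmsb4x was there at 3.29, Tuba8 at 2.60 and Cd68 at 2.24 times the mean of the other cocultures. Myl9 was at 1.84 and Acta2 at 1.91 times that mean. Actn1 and Flna were lowest there, at 0.71 and 0.59 times. Of 9 tested MSC markers 7 were called higher, and of 11 macrophage markers 10. Without replicate 3, all 10 tested MSC markers and all 11 macrophage markers were. Of 15 MK and platelet markers, edgeR called no gene in either direction, with 1 lower at an unadjusted p of 0.05 and 1 lower by DESeq2, and without coculture replicate 3 it called 1 higher and 2 lower. All 11 neutrophil markers and 4 of 9 B cell markers were called lower, as were 1 of 4 tested endothelial markers, and of 3 tested erythroid markers edgeR called none, with 1 lower at an unadjusted p of 0.05 and 1 by DESeq2. Without coculture replicate 3, edgeR called 6 of 9 B cell, 3 of 4 endothelial and 3 of 4 erythroid markers lower, and again all 11 neutrophil markers. Which cells carried the genes of each list, and how much they contributed to the level of a cytoskeletal gene, was not tested.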

How the data were processed

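Bulk RNA-Seq data of 8 libraries were analyzed. The authors deposited raw counts per gene, made by fastp filtering and kallisto quantification on mm10 per the study's methods. The submitters' processing notes also name DESeq2. Transcript summing, rounding, strand and the batch of the authors' model were not given in the sources used here. Reads carry no molecular identifiers. The labels gave each library's group and replicate number. The study states an n of 4 mice per group, repeated experiments for its murine data and a batch term in its model. Which libraries came from separate cultures is not said, so p-values measure the spread between these libraries.

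From the counts, edgeR 4.0.16 (R 4.3.3, TMM factors, filterByExpr, quasi-likelihood F test with robust fitting) was fitted to all 8 libraries without covariates, and p-values were adjusted by Benjamini-Hochberg over 11722 genes. Intervals (95%) used the same fit. Fold changes are coculture over MKs cultured alone. Shares used union exon lengths from GENCODE vM21 (GRCm38), found for 13374 of 13387 symbols, and exact permutation tests over 70 assignments. Python 3.11 was used for shares and counts of 31-base stretches. The fits were tested on simulated data. The members and all gene lists were chosen with earlier results of these data known. Named genes were the 10 members, their family genes, the 3 largest called changes and the most abundant gene of each list, and the most abundant gene of each marker list. Stk16, Lcp1, Lmod1 and Cnn1 were named after their values were seen. Listed genes not in the table (for example Myh11, Myh14, Dcn, Lum and Thy1) were not analysed here. The result of 1 listed gene, and 1 family share that needs it, are not reported here, and the counts leave that gene out. Alternatives were DESeq2 1.42.0, other scalings and filters, glmTreat, the replicate number as a block, and each library left out in turn. Deviations of same-numbered libraries correlated with r of 0.37, 0.02, 0.15 and 0.03 across genes. For differently numbered libraries r ran from -0.28 to 0.10. No label names pairs or batches, so the numbers were not taken as pairs in the main fit. No column was left out.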

Additional observations from a re-analysis of the deposited data

Results flagged for a closer look

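Each group of 4 libraries was searched for a library far from the other 3, in log2(CPM + 1) of the 10 genes and in 9 family shares. Such a library was found in 5 of 38 groups. Chance would give 1.9 if the groups were independent. Shares reuse the counts of the same genes, so the groups are not independent and the 1.9 is no test. The library was coculture replicate 3 in 3 of the 5. In that library log2(CPM + 1) of Tubb1 was 5.32, the share of Tubb1 in the beta-tubulins was 3.81%, and the share of Diaph1 in the diaphanous formins was 97.3%. In replicate 1 of MKs cultured alone, log2(CPM + 1) of Tuba4a was 6.67, below the other libraries of that group. In coculture replicate 4, the share of Tuba4a in the alpha-tubulins was 3.72%, above the other cocultures. The cause of these values was not tested.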

How the results depend on the processing

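Counts of the 10 genes called stayed at 4 higher and 0 lower in all alternatives, except for 3 higher under glmTreat, where Actn1 was lost. Left-out libraries gave 4 higher and 0 lower throughout. Other cytoskeletal genes called higher numbered 18, and 11 under glmTreat. Those called lower numbered 6, but 2 under glmTreat and 10 when every library had to hold 10 counts or more, and left-out libraries gave 14 to 24 higher and 5 to 10 lower. Without coculture replicate 3 the log2 fold change became -0.53 for Tubb1 and -0.26 for Tuba8, and the share difference of Diaph1 -9.47 percentage points in place of 4.22, with a range from -9.47 to 10.1 over left-out libraries. The cause was not tested. The 10-count filter left Tubb1 untested. Over left-out libraries the log2 fold change of Tubb1 ran from -0.53 to 2.26 and that of Tuba8 from -0.26 to 0.43. With the replicate number as a block, edgeR called 4 of the 10 genes higher and 0 lower, and 14 other cytoskeletal genes higher and 8 lower. The replicate block moved Tubb1 to 0.61 and Tuba8 to 0.09, and no call of the 10 genes changed. Over sign changes within numbers, the smallest possible p for a share is 0.125, and with 1 library left out it is 0.0571, so these tests cannot reach 0.05. Not every library correlated best with the one of its own number. Depth limits Tubb1 most, with 7 to 47 counts in 7 of the 8 libraries.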
